A study of Rattus norvegicus with 6 samples.

Results

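The synaptotagmins are membrane proteins of synaptic vesicles, dense-core vesicles and the plasma membrane that carry a pair of C2 domains. Probe sets were taken from the array's annotation wherever it named exactly 1 gene and that gene was Syt1, Syt2, Syt3, Syt4, Syt5, Syt6, Syt7, Syt9, Syt11 or Syt13. This gave 10 probe sets, 1 for each of the 10 genes, of 29215 probe sets on the array and of 15310 that named exactly 1 gene. The RNA came from cortical neurons of Sprague-Dawley rat embryos of day 18, kept for 3 days in NB-N2 medium and described as immature. Untreated neurons gave 3 arrays. The other 3 arrays held RNA of neurons exposed to C1q, a complement protein, at 10 nM over 3 h. The labels number the arrays 1 to 3 in each group and do not say whether these were separate cultures or embryos, so the p-values measure the spread between arrays, which may be technical.

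In neurons, a rise in calcium at the nerve terminal binds the C2 domains of a sensor synaptotagmin, which then acts on membrane lipids and the SNARE proteins to start vesicle fusion. Members differ in this property. Syt1, Syt2 and Syt9 are the sensors of fast transmitter release, Syt7 is a slower sensor of high calcium affinity, Syt4 and Syt11 carry a changed calcium site in the first C2 domain, and Syt13 lacks the usual calcium ligands. The comparison asks whether transcripts of this family differ after a short exposure of neurons to C1q, a protein that the series title names together with neuroprotection.

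No synaptotagmin was called as changed after C1q. All 10 probe sets passed the filter on dim values, and 0 were called higher or lower at an adjusted p under 0.05 in the limma fit over 17529 probe sets, where 0% of all tested probe sets were called. Fold changes are C1q over untreated and were computed on intensity + 16, and those of the family ran from 0.980 for Syt2 to 1.01 for Syt6. In the values as deposited, the 95% interval of each member lay within 1.2-fold of no change, as for 69.8% of tested probe sets. The outer bounds were 0.836 for Syt2 and 1.18 for Syt9. Intervals after rescaling were not compared with this limit. On these arrays Syt4, Syt11 and Syt1 read among the brightest 5% of probe sets, and Syt2 and Syt9 read below the median probe set.

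Transcription start regions are shown for the 3 fast sensors, which have the same described role. The sequences are from RefSeq on GRCr8 and hold the 250 bases before the annotated start, 5′ to 3′ on the gene's strand. Capitals mark GC boxes, searched as GGGCGG on both strands. The windows are chr7:46244214-46244463 on the minus strand for Syt1, chr13:48736872-48737121 on the plus strand for Syt2 and chr1:170687555-170687804 on the plus strand for Syt9.
Syt1: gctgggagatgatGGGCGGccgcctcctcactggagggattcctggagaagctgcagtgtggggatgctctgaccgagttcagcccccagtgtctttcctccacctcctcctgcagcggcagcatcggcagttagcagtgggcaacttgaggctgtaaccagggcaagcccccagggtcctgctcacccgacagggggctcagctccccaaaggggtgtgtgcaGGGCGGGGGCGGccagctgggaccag
Syt2: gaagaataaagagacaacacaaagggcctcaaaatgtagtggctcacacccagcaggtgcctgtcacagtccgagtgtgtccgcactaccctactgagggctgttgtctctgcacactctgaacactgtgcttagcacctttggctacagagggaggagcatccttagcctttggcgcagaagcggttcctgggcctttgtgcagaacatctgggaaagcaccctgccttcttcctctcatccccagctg
Syt9: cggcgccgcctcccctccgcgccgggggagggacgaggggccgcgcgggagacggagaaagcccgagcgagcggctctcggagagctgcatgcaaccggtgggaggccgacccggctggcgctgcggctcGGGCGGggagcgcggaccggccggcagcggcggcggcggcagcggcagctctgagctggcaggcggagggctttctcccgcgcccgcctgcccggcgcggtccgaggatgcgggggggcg
The Syt1 window held 3 GC boxes, beginning 237, 26 and 20 bases before the start. The Syt9 window held 1, beginning 120 bases before the start, and the Syt2 window held none. CpG dinucleotides numbered 8 in the Syt1 window, 4 in that of Syt2 and 41 in that of Syt9, against a median of 5 over 33465 rat windows of the same length. The Syt9 window had more CpG than 99.0% of them. A window was found for 7 members (Syt1, Syt2, Syt3, Syt4, Syt6, Syt9 and Syt11). Of these, 5 held a GC box, as did 30.5% of all windows. No GC box was in the windows of Syt2, which read dim, and of Syt4, the brightest member. A link between GC boxes and level was not tested. The cAMP response element TGACGTCA was in 0 of the 7 windows and in 1.59% of all windows. A match describes letters and is no site in use, and no match says only that these letters are not in this window.

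The deposited values are intensities on a linear scale, and their place in the untreated array's range is given as a percentile among all 29215 probe sets. Probes bind with different strength, so the order of intensities does not order the amounts of mRNA. Syt4 was at percentile 98.3, Syt11 at 97.5 and Syt1 at 95.4. Syt5 was at 86.0, Syt13 at 78.4, Syt7 at 76.8, Syt3 at 60.9 and Syt6 at 53.9, and Syt9 and Syt2 were last, at 44.7 and 44.0. Between neighbours in this order the 6 values overlapped for Syt13 with Syt7 and for Syt9 with Syt2, and for no other neighbours. Each member kept its place after C1q, with percentiles of 98.4 for Syt4, 97.5 for Syt11, 95.4 for Syt1 and 44.0 for Syt2.

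**Figure D1:**
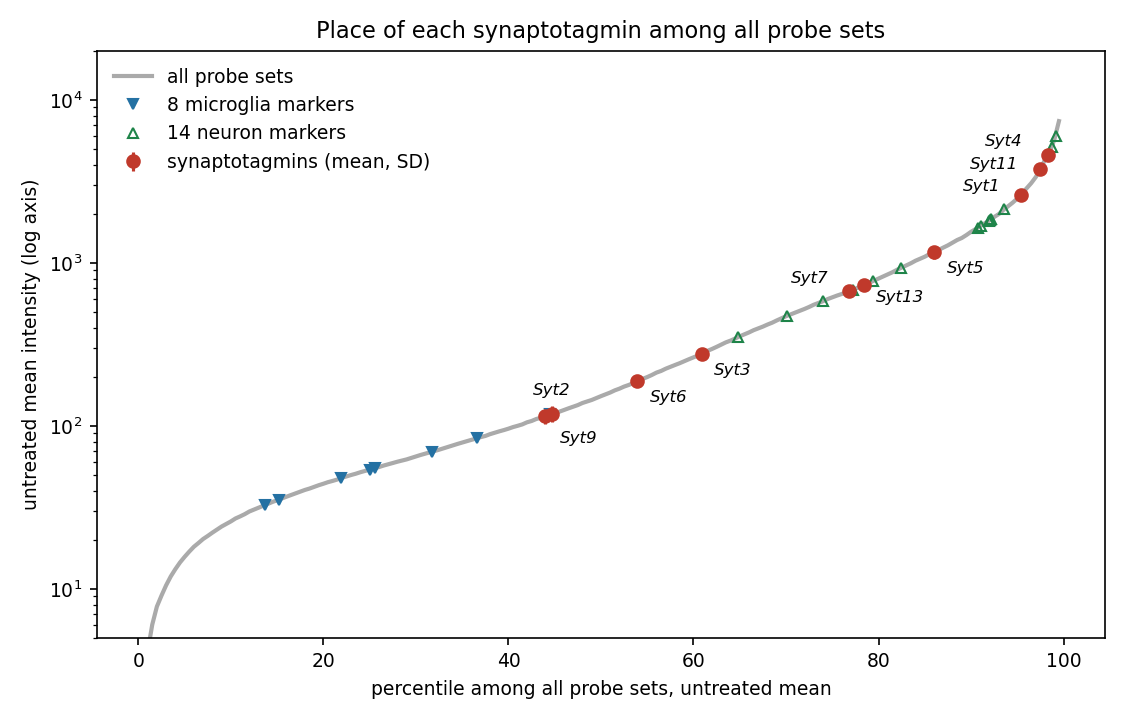
Untreated mean intensity (log axis) against its percentile among all probe sets. The grey line is every probe set, red points are the 10 synaptotagmins with the SD over 3 arrays, green triangles are 14 neuron markers and blue triangles 8 microglia markers. Syt2 and Syt9 lie at the upper end of the microglia markers, near Cd68 at percentile 44.5, and the other members lie above all of these.

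The cultures carried neuronal transcripts. All 5 excitatory markers on the array read at percentile 64.8 or above and all 9 inhibitory markers at 74.0 or above. Of 8 microglia markers 7 read below the filter intensity of 94.4, as did 5 of 7 endothelial markers, and none was at 0. Astrocyte markers ranged from percentile 23.9 for Gfap to 94.7 for Fabp7, with a median of 63.2. Gfap, S100b, Aldh1l1 and Aqp4 read below the median probe set, and Gja1, Slc1a3, Slc1a2, Aldoc and Fabp7 above it. Oligodendrocyte lineage markers had a median percentile of 50.5, from 32.7 for Cspg4 to 60.3 for Mbp. Whether other cells of the cortex were present was not tested. The 7 mural and meningeal markers had a median percentile of 48.2, from 3.5 for Lum to 56.6 for Col1a2 in all but Acta2, an actin gene with close copies, which read at 99.4. In such bulk samples fewer cells of a type and less RNA per cell cannot be told apart. No detection calls were used, so whether Syt2 and Syt9 stood above background is unknown.

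Among the fast sensors, Syt1 is the main one of forebrain synapses. It read 2782, 2431 and 2608 in untreated neurons, given in the order of array numbers, and 2648, 2626 and 2439 after C1q. All C1q values lay between the lowest and the highest untreated value. The means were 2607 ± 175.5 untreated and 2571 ± 115 after C1q (SD, n = 3 each). This was a C1q to untreated ratio of 0.987 (95% interval 0.907 to 1.07; limma, adjusted p = 0.9999).

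Syt2, the fast sensor best known from the hindbrain, spinal cord and some inhibitory neurons, read 126, 104 and 113.5 untreated and 110, 118 and 107 after C1q. The C1q arrays again lay inside the untreated range. The fold change was 0.980 (95% interval 0.836 to 1.15; limma, adjusted p = 0.9999). Syt9, a fast sensor described in limbic and striatal neurons, read 128, 103 and 124 untreated and 112, 129.5 and 110.0 after C1q. Its highest value was on C1q array 2 and its lowest on untreated array 2, and the groups overlapped. Its fold change was 0.994 (95% interval 0.838 to 1.18). The intervals of these dim probe sets include background signal of unknown size, so they may not bound a change of the mRNA itself.

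**Figure D2:**
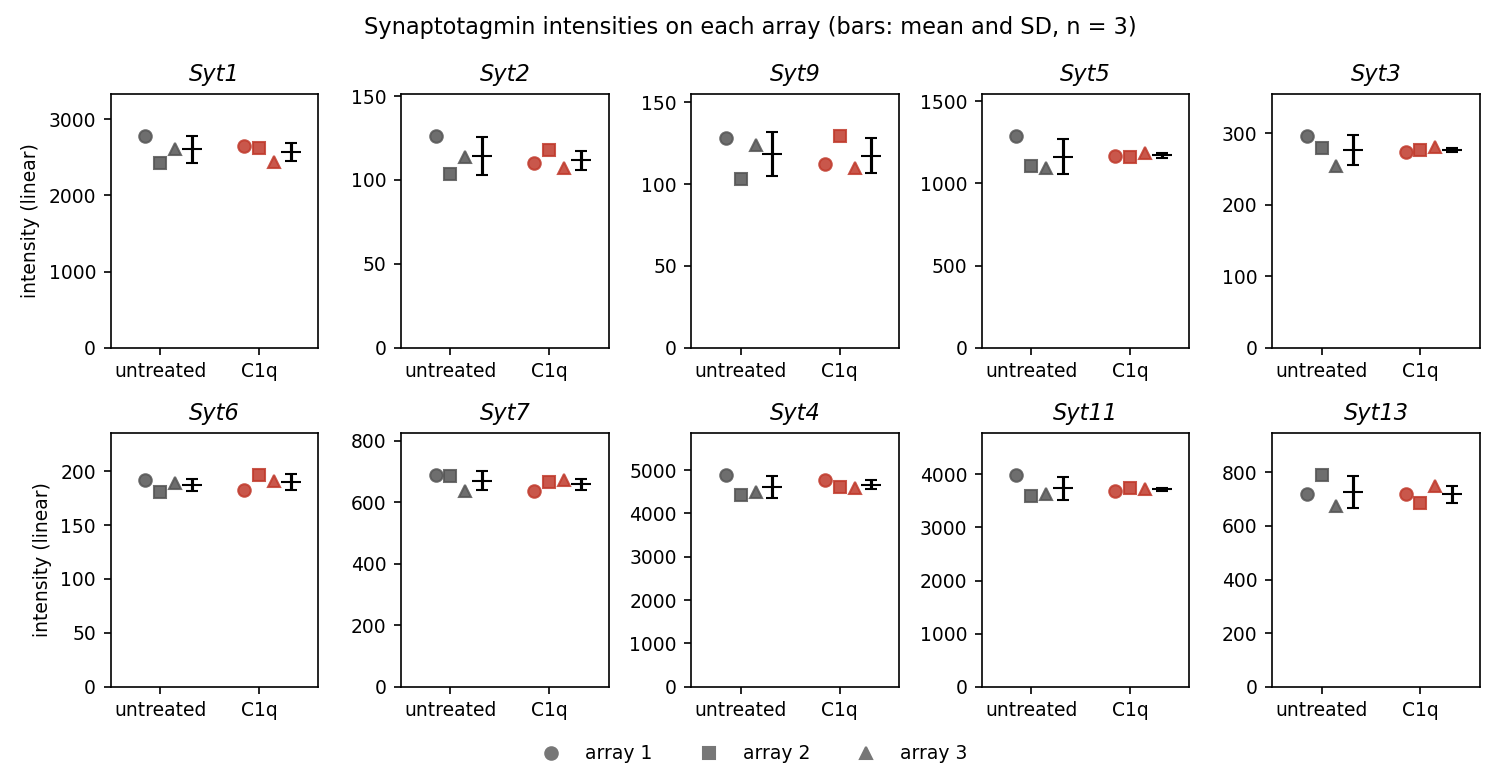
Intensity (linear axis from 0) of each synaptotagmin on untreated arrays (grey) and C1q arrays (red). Symbols give the array number in each group, and black bars give the mean and SD of 3 arrays. The 2 groups overlap for all 10 genes, and untreated array 1 is the highest of the 6 for 7 of them.

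Syt5, found on dense-core vesicles, has a name that was exchanged with Syt9 in parts of the literature. Symbols here follow the array's annotation, updated by gene identifier through RefSeq. Syt5 read 1290, 1106 and 1096 untreated and 1165, 1162 and 1186 after C1q. Untreated array 1 was high, and the 3 C1q arrays lay close together between it and the other two. The means were 1164 ± 109 and 1171 ± 12.7 (SD, n = 3 each). This was a C1q to untreated ratio of 1.01 (95% interval 0.916 to 1.11; limma, adjusted p = 0.9999).

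Syt3 and Syt6 belong to the members that form disulfide-linked dimers. Syt3, a sensor of high calcium affinity that is also described at postsynaptic membranes, read 297, 280 and 254 untreated and 275, 276 and 280 after C1q. Its C1q values fell inside the untreated range, and its means of 277 ± 21.3 and 277 ± 2.98 (SD, n = 3 each) were nearly the same. The fold change of Syt3 was 1.00 (95% interval 0.890 to 1.13). Syt6, known from the acrosome reaction of sperm, read 192, 180.5 and 189 untreated and 183, 197 and 191 after C1q. C1q array 2 was the highest, and the groups overlapped at a ratio of 1.01 (95% interval 0.896 to 1.15). Syt6 had the smallest within-group spread of the family, at a log2 SD of 0.0453, which was at percentile 3.8 among the 1000 tested probe sets nearest to it in level.

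Syt7, the sensor linked to asynchronous release, facilitation and lysosome exocytosis, read 689, 686 and 636 untreated and 637, 666 and 672 after C1q. Untreated array 3 and C1q array 1 were the low ones, and the groups overlapped. The means were 670 ± 29.6 and 658 ± 18.3 (SD, n = 3 each). This was a C1q to untreated ratio of 0.983 (95% interval 0.9005 to 1.07; limma, adjusted p = 0.9999).

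Of the members with a changed first C2 domain, Syt4 sits on dense-core vesicles and is known as an activity-induced gene. It read 4890, 4425 and 4486 untreated and 4780, 4610 and 4589 after C1q. The means were 4601 ± 253 and 4660 ± 105 (SD, n = 3 each), and the C1q values lay within the untreated range. Its fold change was 1.01 (95% interval 0.943 to 1.09; limma, adjusted p = 0.9999), so 1.1-fold lay outside this interval of the deposited values. The log2 fold change of Syt4 was 0.027 after quantile normalization and 0.046 after median centring. With single arrays left out it ran from -0.0076 to 0.064. Intervals of those fits are not given here, so the bound holds for the deposited values only.

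Syt11, which takes part in vesicle trafficking and membrane retrieval, read 3991, 3597 and 3638 untreated and 3685, 3742 and 3732 after C1q. Untreated array 1 stood above the other 5 arrays. The means were 3742 ± 217 and 3719 ± 30.2 (SD, n = 3 each). This was a C1q to untreated ratio of 0.995 (95% interval 0.926 to 1.07; limma, adjusted p = 0.9999).

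Syt13, which does not bind calcium in the usual way and is known from pancreatic endocrine cells, read 719, 791 and 673.5 untreated and 721, 686 and 749 after C1q. It was the only member whose highest value was on untreated array 2. Its groups overlapped, and its fold change was 0.990 (95% interval 0.894 to 1.10; limma, adjusted p = 0.9999).

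**Figure D3:**
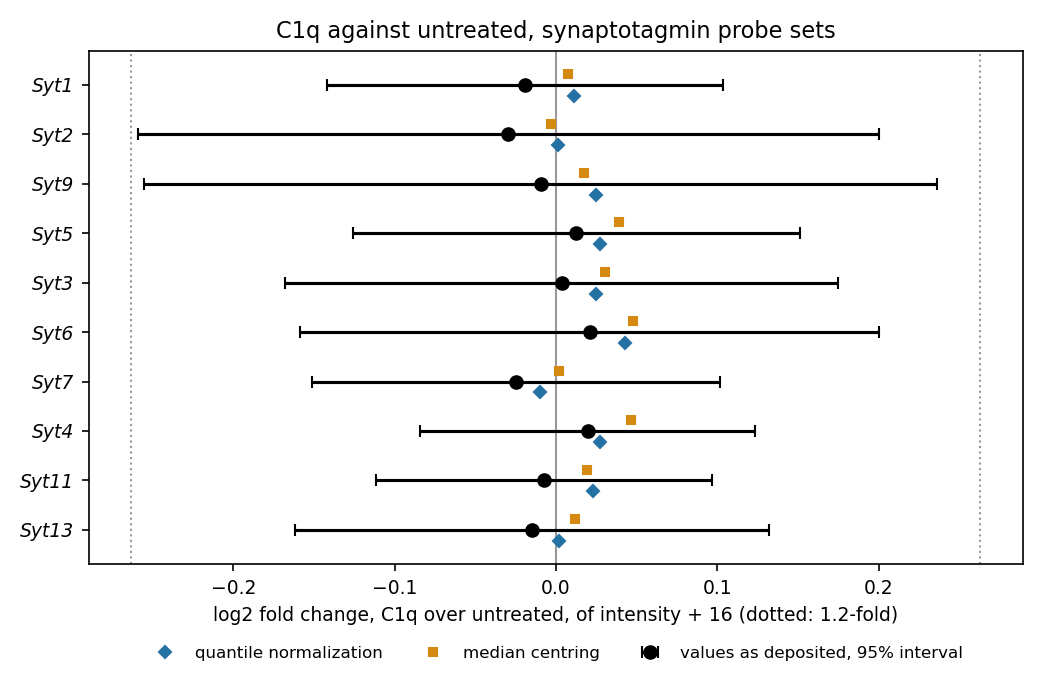
Log2 fold change of C1q over untreated for each synaptotagmin, on intensity + 16. Black points are the values as deposited with 95% intervals of the limma fit, blue diamonds are values after quantile normalization and orange squares after median centring. All intervals cover 0 and lie within the dotted lines at 1.2-fold. After quantile normalization or median centring 9 of 10 points lie above 0, against 4 of 10 as deposited.

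The direction of the family as a whole depended on the scaling. Means were higher after C1q for 4 members and lower for 6, and 9 were higher and 1 lower after either quantile normalization or median centring. Over all tested probe sets 63.3% were lower as deposited. The median log2 fold change of the 10 members was -0.0083, beside -0.019 over all tested probe sets. These medians were 0.024 and 0.001 with quantile normalization, and 0.0185 and 0.0077 with median centring. The share of all tested probe sets with a higher mean was not counted after rescaling. No member had groups that did not overlap, where 5.72% of all tested probe sets did, 1.3% with C1q higher and 4.42% with C1q lower. The C1q values of 8 members lay wholly inside their untreated range, as for 36.0% of all probe sets tested. The unadjusted p-values of the limma fit began at 0.676, for Syt7. At an unadjusted p under 0.05 there were 0 members and 2.49% of all tested probe sets, and the smallest adjusted p in the whole table was 0.9999.

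Single arrays stood out more than the groups in this family. Untreated array 1 was the highest array for 7 of 10 members, among them all 4 members with an untreated mean above 1000 (Syt4, Syt11, Syt1 and Syt5). The same array was highest for 42.0% of all tested probe sets and for 59.5% of the 4776 with a mean above 1000. These 4 members exceeded the mean of the other 5 arrays by 0.0953 to 0.173 log2 on untreated array 1, beside a median of 0.079 over the 4776 probe sets. After quantile normalization untreated array 1 was the highest for 6 of 10 members, beside 21.4% of all tested probe sets, and for all 4 bright members, beside 21.6% of the 4776. Without untreated array 1, 8 members had a higher and 2 a lower mean after C1q, with log2 fold changes from -0.022 for Syt13 to 0.088 for Syt5, and 0 were called.

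The spread between arrays was smaller after C1q for 9 of 10 members, all but Syt6, and for 70.3% of all tested probe sets. With quantile normalization of all arrays it was smaller for 10 of 10 members and 65.4% of tested probe sets. In the values as deposited without untreated array 1, it was smaller for 6 of 10 members and 53.6% of probe sets. That comparison had fewer untreated than C1q arrays, which by itself changes such counts. They are therefore not directly comparable with the counts over all arrays. For Syt11 the coefficient of variation was 5.79% untreated and 0.811% after C1q, and for Syt3 it was 7.70% and 1.07%. For Syt9 it was 11.5% and 9.04%. The log2 within-group SD had a median of 0.0790 over the members and of 0.0832 over all tested probe sets.

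**Figure D4:**
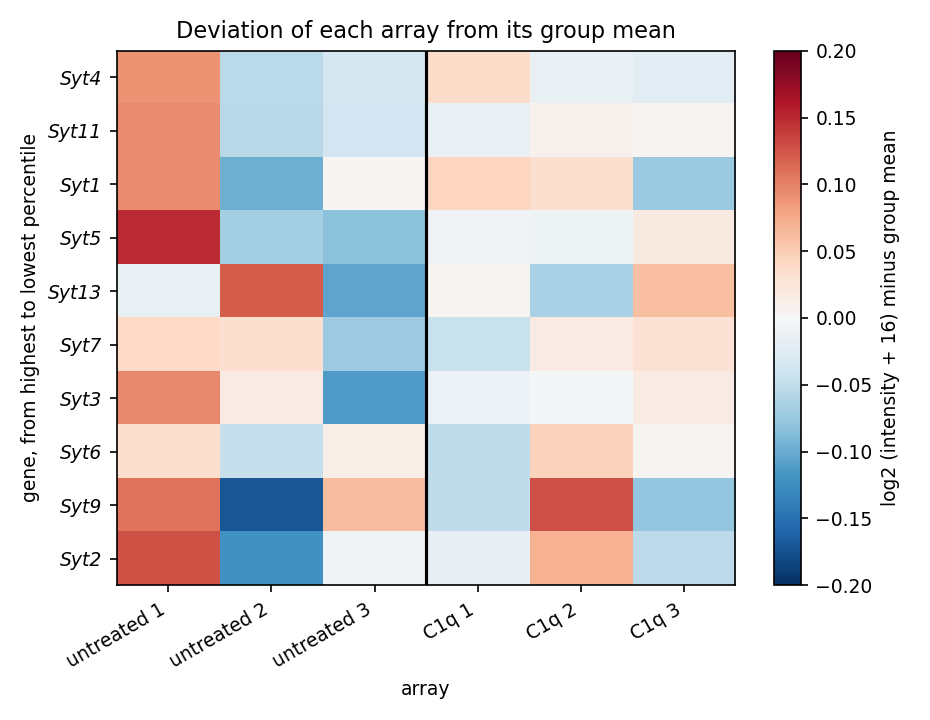
Deviation of each array from the mean of its group, in log2 (intensity + 16), for the 10 synaptotagmins (rows, brightest first) on 6 arrays (columns). Red is above and blue below the group mean. Untreated array 1 is above its group mean for 9 members, and Syt13 departs from them, with its highest value on untreated array 2.

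Deviations from the group means were compared between members over the 6 arrays, as a description, since arrays share one scaling. Pearson's r was positive for 35 of 45 pairs, with a median of 0.497. The 4 bright members were positive in all 6 of their pairs, from 0.617 to 0.976, and as deposited Syt5 and Syt11 were the closest pair of the family. Over all pairs of tested probe sets with a mean above 1000, 73.5% were positive, with a median of 0.44. After quantile normalization the median over the 45 pairs was 0.27, and over the 6 bright pairs it was 0.624, from 0.195 to 0.85. The closest pair was then Syt2 and Syt9 (0.951). Pairs over all tested probe sets were not correlated after quantile normalization, so 0.44 is no background for these values. Among the dim members, Syt2 and Syt9 had r = 0.919 as deposited. Syt13 ran against several members, with r = -0.862 to Syt9, -0.652 to Syt1 and -0.643 to Syt2, and was positive with Syt7 (0.601) and Syt3 (0.497). The values of Syt1 over all 6 arrays were most like those of Bach2 (r = 0.9985), Nono (0.997) and Cnot4 (0.997). These were the highest of 10301 probe sets compared, of which 911 had r above 0.9 with Syt1.

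Genes that act with synaptotagmins were not called either. None of 23 tested genes of the SNARE fusion machinery was called, with 9 means higher and 14 lower and a median log2 fold change of -0.015, beside -0.016 over 9652 tested genes, of which 63.0% were lower. Quantile normalization gave 12 higher and 11 lower, and median centring 15 and 8. Snap25, the plasma membrane SNARE that Syt1 binds, had means of 2811 ± 147 and 2739 ± 59.7 (SD, n = 3 each) and a fold change of 0.975 (95% interval 0.907 to 1.05). The fold change was 0.961 for the syntaxin gene Stx1a and 1.00 for Vamp2, the vesicle SNARE. The outermost values of that list were 0.928 for Stx3, a plasma membrane syntaxin, and 1.05 for Stxbp2, a syntaxin-binding protein. Groups did not overlap for 2 of the 23 genes, Stx3 and Napg, beside 479 of the 9652 tested genes. Napg was named after its value was seen. Stx3 read 135, 148 and 144 untreated and 127, 133 and 132 after C1q, and it did not pass (limma, adjusted p = 0.9999).

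None of 14 tested partners and retrieval adaptors was called, with 6 means higher and 8 lower, and 10 and 4 with either rescaling. Sv2a, the vesicle glycoprotein that binds Syt1, had a fold change of 0.972 (95% interval 0.909 to 1.04). Ston2, the stonin adaptor that sorts Syt1 during retrieval, had 1.06 (95% interval 0.902 to 1.24), the highest of the list. Ap2m1, the AP-2 subunit that binds synaptotagmin cargo, had 0.985, and Ston1 had the lowest value, 0.968.

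Other proteins with paired C2 domains were mostly dim. None of 8 tested genes was called. After C1q 6 of their means were higher and 2 lower, also with both rescalings. The array named 5 further synaptotagmins, Syt8, Syt10, Syt12, Syt15 and Syt17, at percentiles of 36.4 to 41.8, and 3 of them passed the filter. Syt17, the highest of the list, read 99.2, 91.4 and 101 untreated and 117, 106 and 112 after C1q. Its groups did not overlap, which held for 1.3% of all tested probe sets in this direction. Its fold change was 1.13 (95% interval 0.967 to 1.31), and it did not pass (limma, adjusted p = 0.9999). Syt10 had the lowest value, 0.949 (95% interval 0.787 to 1.14).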

How the data were processed

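Cortical neuron RNA was column-purified and labelled as biotinylated cRNA for Affymetrix arrays, per the labels' protocols. The deposited value table holds 1 intensity per probe set and array, on a linear scale. How probes were summarised and normalized is not given in the sources used here. Array medians were 147 to 155. Symbols came from the platform annotation, updated by gene identifier through a RefSeq table (GRCr8), which matched all 10 members. No probe set named a member together with other genes.

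Values were analysed as log2(intensity + 16), which understates changes of dim genes. Array medians differed by at most 0.0696 log2, under a limit of 0.1, so no rescaling was applied. The brightest 60% of probe sets, above an intensity of 94.4, were tested with lmFit and eBayes with intensity trend in limma 3.58.1 (R 4.3.3). Benjamini-Hochberg adjustment covered all 17529. Intervals are 95% intervals of that fit, and the number of arrays limits their precision. Other genes were represented by their brightest probe set. The fit was tested on simulated data, made by adding known changes to the deposited values of some probe sets. The share of these that was called is not given here. Protein sequences were not used here. Members and lists were chosen with earlier results of these data known. All member probe sets are named. In each other list except the cell type markers, which are described by level, the genes of highest and lowest fold change are given, as are 6 genes chosen by name (Snap25, Stx1a, Vamp2, Sv2a, Ston2 and Ap2m1) and the 3 genes most correlated with Syt1. Alternatives covered scaling, pseudocount, filter, variance model, array weights, replicate block and leaving out each array.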

Additional observations from a re-analysis of the deposited data

How the results depend on the processing

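No synaptotagmin was called under any of 16 alternatives, and the smallest adjusted p of a member was 0.292, for Syt5 with array weights (limma). Of 157 member values under alternatives 31 changed sign, as values this close to 0 can, and all lay between -0.095 and 0.095 log2. With quantile normalization the log2 fold changes turned positive for Syt9 (0.025), Syt2 (0.0013), Syt11 (0.023), Syt13 (0.0020) and Syt1 (0.011), and with median centring for Syt9 (0.017), Syt7 (0.0019), Syt11 (0.020), Syt13 (0.012) and Syt1 (0.0077). With array weights they turned for Syt7 (0.025), Syt6 (-0.0032), Syt11 (0.022) and Syt13 (0.076). Those weights were 5.51 for untreated array 3 and 0.335 to 1.81 for the others. Leaving out each array in turn gave ranges of -0.068 to 0.029 for Syt1, -0.090 to 0.035 for Syt2, -0.053 to 0.052 for Syt3, -0.0076 to 0.064 for Syt4, -0.028 to 0.088 for Syt5, -0.0024 to 0.046 for Syt6, -0.095 to 0.045 for Syt9, -0.035 to 0.040 for Syt11 and -0.068 to 0.045 for Syt13. The sign of Syt7 held in these fits. The family's median ran from -0.027 to 0.039. The brightest 40% left out Syt2, Syt6 and Syt9.

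Over all probe sets, array weights led to 130 higher and 317 lower calls in limma, and testing with no filter to 1 lower call. The cause was not tested. Calls ranged from 0 to 28 higher and from 0 to 10 lower when single arrays were left out, and only the fit lacking untreated array 2 made any. With the replicate number as a block 9 were called higher, none a member. The labels give same-numbered arrays no shared origin. Their deviations correlated at 0.0141, -0.453 and -0.134, and those of differently numbered arrays at -0.371 to 0.452. Shifts of whole arrays enter these values, so they cannot show whether the arrays were paired.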
